A study of Mus musculus with 5 samples.

Results

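The 10 keratin genes described here were followed through RNA-seq of mouse thyroid tumor cell lines. They were chosen by symbol, and all 10 were among the 17923 genes listed in at least 1 library. They comprise the type II keratins Krt5, Krt7, Krt8 and Krt80 and the type I keratins Krt14, Krt15, Krt17, Krt18, Krt19 and Krt20. The annotation table holds 54 keratin genes in all. The cells came from thyroid tumors of mice carrying BrafV600E, an activated form of the kinase Braf, and were passaged in long-term culture. The gene of β-catenin, Ctnnb1, is labelled as wild type in BVE-Ctnnb1wt cells and as deleted in BVE-Ctnnb1null cells. Every group therefore shared BrafV600E. The driver of the deletion is not given in the sources used here, and neither is the age of the mice.

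There were 2 libraries labelled BVE-Ctnnb1wt (wt) and 3 labelled BVE-Ctnnb1null (null). Both wt libraries carried the line name BVE at passage 20. The name of replicate 1 states no thyroid-stimulating hormone (TSH) and that of replicate 2 states TSH. Null replicate 1 carried the name BVECTN_4 at passage 8 without TSH, null replicate 2 BVECTN_4A at passage 11 and null replicate 3 BVECTN_5 at passage 7, with TSH not stated for the last pair. The protocol text instead gives about 25 passages for wt and 20 for null cells. Since both wt libraries carry 1 line name, the spread between them does not cover differences between wt lines, and genotype, line and passage cannot be told apart. Library totals lay between 29360002 and 30713079 estimated counts, so that 3 counts, the upper limit for a gene counted 0 times, were worth about 0.1 CPM (counts scaled to a common library total), for counting error only. Levels are given as FPKM (fragments per transcript length and sequencing depth), which can be set side by side between genes, and each of the 10 keratins had 1 transcript in the files.

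RNA of the targeted gene, taken over the whole gene, was not lower in the null libraries, although they are labelled as deleted. Ctnnb1 (NCBI gene 12387) showed an FPKM of 59.3 and 73.8 in wt replicates 1 and 2 and of 124.6, 196.3 and 117.8 in null replicates 1, 2 and 3. In CPM scaled by TMM, the library scaling of edgeR, it was 251.1 and 356.4 in the wt pair, against 418.2, 572.2 and 343.8 in the null lines, so that null replicate 3 fell between the wt libraries. Exons are not resolved in these values, so they do not show whether the deleted part was missing. "Wt" and "null" below are the labels of the libraries and nothing more.

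Keratins form the intermediate filaments of epithelial cells. A filament is built from pairs of 1 type I and 1 type II protein, so that neither type makes a filament alone. Krt8 and Krt18 are the first pair of simple epithelia and are found, with Krt7 and Krt19, in thyroid follicular cells. Krt5 and Krt14 form the pair of the basal layer of stratified epithelia. Krt19 levels are often raised in papillary thyroid cancer.

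The 4 abundant simple epithelial keratins carry the results below, and the promoters of 3 of them are shown so that a reader can see what lies at the start of each gene. Sequences are from RefSeq (GRCm38.p6), 5′ to 3′ on the strand of the gene, from 250 bases before to 50 bases after its start, and 6 of the 10 keratins had an entry. That of Krt8 is chr15:102004293-102004592 on the minus strand, that of Krt18 chr15:102027966-102028265 and that of Krt7 chr15:101412153-101412452, both on the plus strand. Capitals mark CACCTG, the E-box to which Snail and Zeb repressors can bind.
Krt8: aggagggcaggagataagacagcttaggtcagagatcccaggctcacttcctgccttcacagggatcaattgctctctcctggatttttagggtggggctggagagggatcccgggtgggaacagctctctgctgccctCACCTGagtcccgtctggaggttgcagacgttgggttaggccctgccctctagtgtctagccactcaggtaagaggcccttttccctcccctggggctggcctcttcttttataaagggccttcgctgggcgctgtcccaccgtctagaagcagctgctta
Krt18: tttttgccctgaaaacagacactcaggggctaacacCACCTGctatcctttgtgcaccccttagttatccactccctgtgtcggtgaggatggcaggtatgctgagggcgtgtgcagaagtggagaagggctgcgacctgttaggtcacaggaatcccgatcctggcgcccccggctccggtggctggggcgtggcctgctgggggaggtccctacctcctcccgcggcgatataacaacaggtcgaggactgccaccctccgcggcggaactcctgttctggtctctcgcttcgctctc
Krt7: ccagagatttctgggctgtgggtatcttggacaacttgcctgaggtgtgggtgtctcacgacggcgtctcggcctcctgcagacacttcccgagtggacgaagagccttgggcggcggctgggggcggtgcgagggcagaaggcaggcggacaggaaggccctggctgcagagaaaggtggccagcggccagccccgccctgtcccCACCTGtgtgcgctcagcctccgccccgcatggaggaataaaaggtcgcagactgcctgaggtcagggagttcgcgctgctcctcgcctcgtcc
Of the 6 keratin promoters 4 (Krt5, Krt7, Krt8 and Krt18) held CACCTG on either strand, against 20.2% of all 32851 promoters in the table. The letters CTTTGAA or CTTTGAT, to which the β-catenin partners Tcf and Lef can bind, were in 0 of the 6 and in 8.65% of all. The AP-1 letters TGANTCA were in 0 of the 6 and in 7.81% of all. The GC box GGGCGG was in 1, that of Krt7, and in 35.7% of all. All were searched on both strands, no E-box overlapped another match, and a match describes the letters only.

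Krt8, Krt18, Krt7 and Krt19 made up between 97.3% and 99.7% of the summed FPKM of the 10 genes in every library. The summed FPKM was 1072 and 1741 in wt replicates 1 and 2 and 11853, 725.3 and 1127 in null replicates 1, 2 and 3. Null replicate 1 thus stood far above all others, while null replicate 2 was lowest. Null replicate 3 lay between the wt libraries in summed FPKM but below both in TMM CPM, with 1451 against 2126 and 3997. The 10 genes took 1.86% of all counts in null replicate 1 and between 0.114% and 0.294% in the other libraries. In bulk RNA a smaller share of cells expressing a gene and less RNA per cell cannot be told apart.

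**Figure D1:**
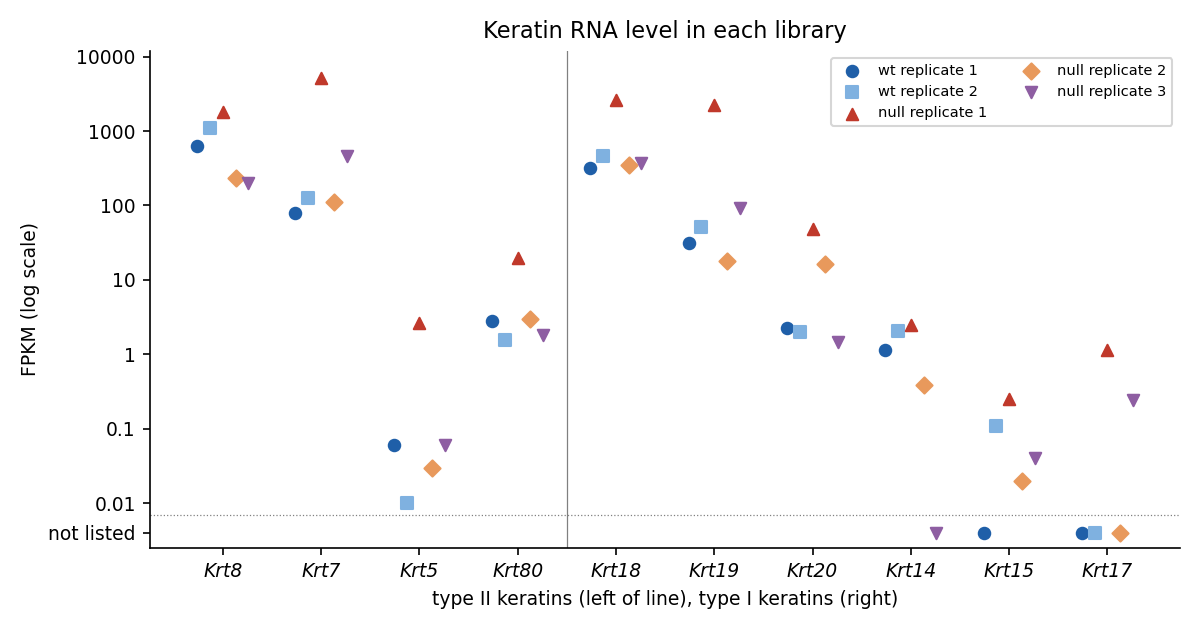
FPKM of each keratin (log axis) in the 5 libraries, 1 point a library, with type II genes left and type I genes right of the line. Null replicate 1 is highest for all 10 genes, and Krt5, Krt14, Krt15 and Krt17 stay at or under an FPKM of 2.61 everywhere.

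Krt8 (NCBI gene 16691), the type II partner of simple epithelia, showed an FPKM of 634.4 and 1104 in wt replicates 1 and 2. In null replicates 1, 2 and 3 it was 1798, 230.5 and 201.5. Null replicate 1 lay above and null replicates 2 and 3 below both wt libraries, so the groups overlapped. The means were 869.0 ± 331.7 (SD, n = 2) in the wt pair, against 743.2 ± 913.3 (SD, n = 3) in null libraries. In the edgeR fit over all genes the log2 fold change was -0.76 (SE, the standard error, 1.03, adjusted p = 0.711). Without null replicate 1 it was -2.72 (adjusted p = 0.0987).

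Krt7 (NCBI gene 110310), a type II keratin of simple and glandular epithelia, showed an FPKM of 79.7 and 124.0 in wt replicates 1 and 2. It had 5131, 111.0 and 461.3 in null replicates 1, 2 and 3. Null replicates 1 and 3 were above both wt libraries. Null replicate 2 fell between them in FPKM but below both in TMM CPM, with 145.4 against 152.3 and 271.8. In null replicate 1 Krt7 ranked 5th among all genes by FPKM, and it was the keratin among the 10 most counted genes of that library. Its log2 fold change was 3.71 (SE 1.65, adjusted p = 0.287) and 0.76 without null replicate 1. DESeq2 gave an adjusted p = 0.0493, and the other settings tried gave values from 0.182 to 0.85.

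Krt80 (NCBI gene 74127), a type II keratin, was low. Its FPKM was 2.82 and 1.57 in the wt pair, against 19.8, 3.01 and 1.84 in null replicates 1, 2 and 3. Null replicate 3 lay between the wt libraries in FPKM but below both in TMM CPM, with 2.69 against 5.97 and 3.81. The log2 fold change of 1.42 (SE 1.16, adjusted p = 0.526) became -0.50 without null replicate 1.

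Krt18 (NCBI gene 16668), the type I partner of Krt8, showed an FPKM of 320.5 and 457.1 in wt replicates 1 and 2. In null replicates 1, 2 and 3 it was 2605, 346.3 and 366.9. Null replicate 1 was 6.70-fold above the wt mean in FPKM. Null replicates 2 and 3 lay between the wt libraries in FPKM but below both in TMM CPM, with 395.2 and 421.4 against 533.8 and 872.6. The log2 fold change of 0.98 (SE 1.02, adjusted p = 0.617) became -0.83 without null replicate 1.

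Krt19 (NCBI gene 16669), a type I keratin with a very short tail, varied most of the abundant members, by 126.3-fold between its extremes. Its FPKM was 31.4 and 51.1 in wt replicates 1 and 2 and 2244, 17.8 and 93.7 in null replicates 1, 2 and 3. Null replicates 1 and 3 were above and null replicate 2 was below both wt libraries. The log2 fold change of 3.74 (SE 1.99, adjusted p = 0.348) became -0.30 without null replicate 1.

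Krt20 (NCBI gene 66809), a type I keratin best known from intestinal and bladder epithelium, showed an FPKM of 2.23 and 2.01 in wt replicates 1 and 2. It had 48.4, 16.3 and 1.47 in null replicates 1, 2 and 3. Here null replicate 2, which was low for Krt8 and Krt19, was 7.70-fold above the wt mean, and null replicate 3 was below it. Krt20 had a log2 fold change of 2.87 (SE 1.34, adjusted p = 0.30), and of 1.42 without null replicate 1.

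The basal and stratified keratins were scarce. Krt14 (NCBI gene 16664) gave 58 and 108 counts in the wt pair, against 123, 19 and 0 in null replicates 1, 2 and 3, with an FPKM of at most 2.45. Its log2 fold change was -1.29 (SE 1.74, adjusted p = 0.708), and -3.72 without null replicate 1. Krt5 (NCBI gene 110308), its type II partner, gave 4 and 1 counts in the wt pair, against 172, 2 and 4 in the null lines, so it was above a handful of counts in null replicate 1 alone. Krt17 (NCBI gene 16667), a type I keratin of wounded skin and hair follicles, was not counted in either wt library and had 52, 0 and 11 counts in null replicates 1, 2 and 3. Against the limit of 3 counts per wt library the null mean was at least 7.17-fold higher in CPM, or 1.91-fold without null replicate 1. Krt15 (NCBI gene 16665) gave 0 and 6 counts in the wt pair, against 13, 1 and 2 in the null lines.

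The counts of Krt5, Krt7, Krt8, Krt14, Krt17 and Krt19 were not whole in every library (tolerance 0.005), as happens where reads are divided among similar sequences. For Krt5, Krt14 and Krt17, with few reads beside very abundant relatives, the values are uncertain.

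Of the 10 keratins, 8 passed the filter on low counts and were tested, Krt17 only through null libraries. Krt5 and Krt15 did not pass. By edgeR's quasi-likelihood test, Benjamini-Hochberg adjusted over 13240 genes, 0 of the 8 had an adjusted p under 0.05, as had 0.0% of all genes. At an unadjusted p under 0.05 it was also 0 of 8, against 12.4% of all genes higher and 6.07% lower in the null libraries. DESeq2 gave an adjusted p for 7 of the 8, not for Krt19, and called 1, Krt7, against 8.41% of all genes called higher and 3.68% called lower. The log2 fold change was positive for 6 of the tested keratins, or 5 of 7 without Krt17, and negative for 2. Its median was 2.15, or 2.13 with Krt17 at its bound and 1.42 without Krt17, against 0.29 over all genes. Without null replicate 1 the median was -0.40. In TMM CPM the wt and null groups overlapped for all 8 tested keratins, where 22.6% of all genes had every null library above and 17.3% every null library below both wt libraries.

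The null lines therefore were described one by one, each a single library with no replicate check. On log2(TMM CPM + 0.5), null replicate 1 was above the wt mean for 8 of the 8 tested keratins, with a median difference of 2.46 against 0.12 over all genes. It was at least 2 above the wt mean for 6 of them, against 10.4% of all genes, and at least 2 below for 0, against 5.56%. Krt17 passed the filter only through null libraries, which fixes its sign. Without Krt17, null replicate 1 was above the wt mean for 7 of 7 and at least 2 above for 5 of 7. The median of 2.46 includes Krt17. Krt19 differed by 5.33, Krt7 by 5.21 and Krt20 by 3.92, while Krt8 differed by 0.63.

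In null replicate 2 the median difference on this scale was -0.64 against 0.04 over all genes, and 1 of the 8 keratins was above the wt mean. That gene was Krt20, with a difference of 2.20, where 8.29% of all genes were at least 2 above. Krt8 differed by -2.50, where 4.71% of all genes were at least 2 below. In null replicate 3 the median difference was -0.72 against 0.14 over all genes. Krt8 differed by -2.69 and Krt14 by -2.93, where 4.25% of all genes were at least 2 below. Krt7 differed by 1.58 in the other direction, and 0 of the 8 were at least 2 above the wt mean, against 8.96% of all genes.

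**Figure D2:**
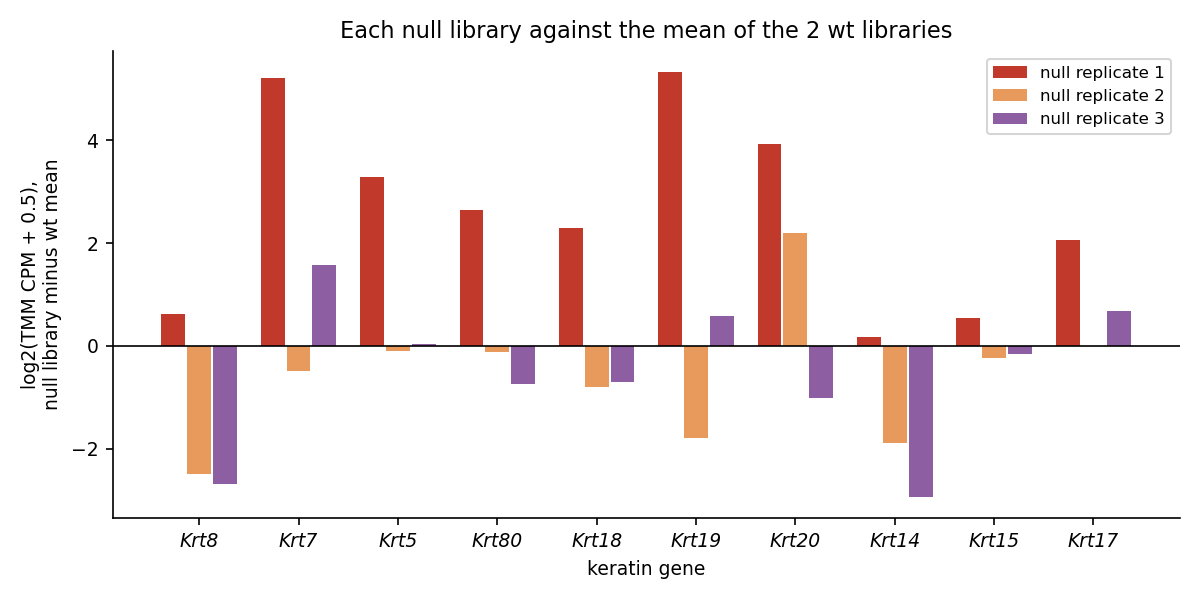
Difference of each null library from the mean of the 2 wt libraries in log2(TMM CPM + 0.5), 1 bar for each keratin and library. Null replicate 1 is above 0 for all 10 keratins, null replicates 2 and 3 are below -2 for Krt8, and null replicate 2 is above 2 for Krt20.

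The wt libraries, whose labels differ in TSH, shared the order of their 4 most abundant keratins in FPKM, Krt8, Krt18, Krt7 and Krt19, but not of the scarcer ones. With TSH the FPKM was 1.74-fold as high for Krt8, 1.43-fold for Krt18, 1.56-fold for Krt7 and 1.63-fold for Krt19. Among the scarcer keratins it was 1.84-fold for Krt14, 0.901-fold for Krt20 and 0.557-fold for Krt80. Each is a ratio of single libraries. For Krt20 the direction turned in TMM CPM, with 5.15 in wt replicate 1 and 5.32 in wt replicate 2. On log2(TMM CPM + 0.5) the difference was 1.00 for Krt8, rounded up from just under 1, and 0.71 for Krt18. Of all genes, 4.9% were higher and 5.05% lower by at least 1 in wt replicate 2.

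The make-up of the keratin RNA differed between the libraries. Krt8 accounted for 59.2% and 63.4% of the summed keratin FPKM in wt replicates 1 and 2. It accounted for 15.2%, 31.8% and 17.9% in null replicates 1, 2 and 3, below both wt libraries in each. The share of Krt7 was 7.43% and 7.12% in the wt pair, against 43.3%, 15.3% and 40.9% in the null libraries, above both wt libraries in each. Krt7 was the leading keratin in null replicates 1 and 3 and Krt18 in null replicate 2. These shares were examined after the values were seen, and they sum to a whole, so that a lower share of Krt8 raises the others.

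**Figure D3:**
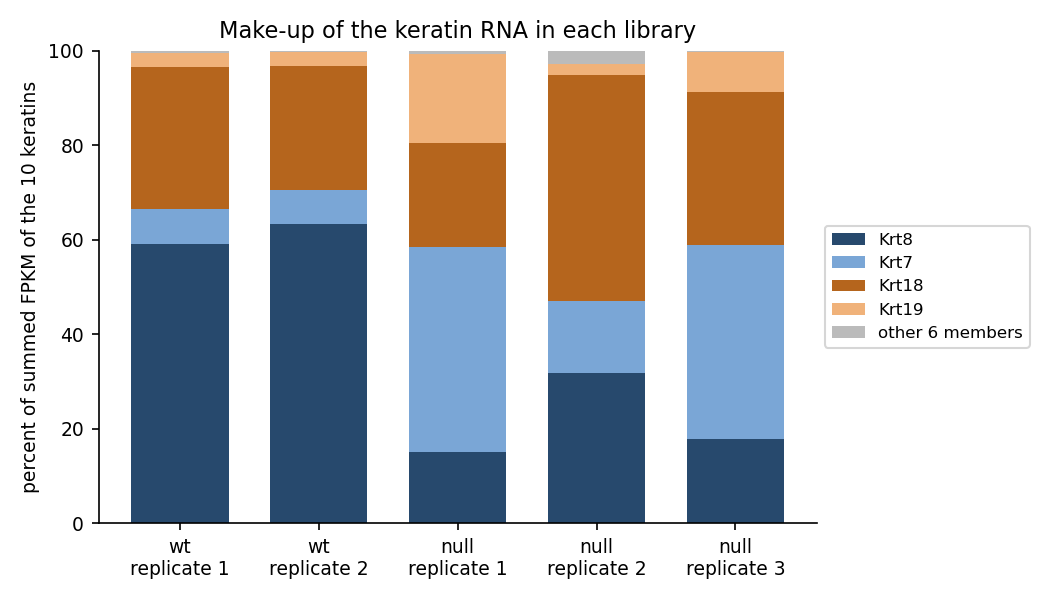
Share of each keratin in the summed FPKM of the 10 genes, 1 bar a library. Krt8 fills 59.2% and 63.4% of the wt bars and 15.2% to 31.8% of the null bars.

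Ratios within a library do not depend on how libraries are scaled. The FPKM of Krt8 was 1.98 and 2.41 times that of its partner Krt18 in wt replicates 1 and 2. In null replicates 1, 2 and 3 it was 0.690, 0.666 and 0.549 times. The log2 ratio was 1.13 ± 0.20 (SD, n = 2) in wt and -0.66 ± 0.18 (SD, n = 3) in null libraries, and the groups were separated by 1.52 on that scale. Thus null replicate 1, with the highest level of both genes, and null replicates 2 and 3, with the lowest levels of Krt8, had ratios between 0.549 and 0.690. Among the 10899 other genes that reached 10 counts throughout, set against Krt18 in the same way, 8.84% had a lower ratio in every null library than in both wt libraries, and 1.04% were separated by at least 1 on the log2 scale. Krt8 and Krt18 are neighbors in the genome (order from RefSeq GRCm38.p6).

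The FPKM of Krt7 was 0.126 and 0.112 times that of Krt8 in the wt pair, against 2.85, 0.481 and 2.29 times in null replicates 1, 2 and 3. The log2 ratio differed by 3.63 between the group means. Of genes set against Krt8, 20.2% had a higher ratio in every null library and 6.54% were separated by at least 1. The 6 keratins that reached 10 counts throughout form 15 pairs, and in 6 of these the ratios of the groups did not overlap. All 5 pairs with Krt8 were among them and share that gene, with Krt8 relatively lower in every null library, where the 20.2% of all genes above is the background. The other was Krt7 to Krt18, higher in every null library as were 3.09% of all genes set against Krt18. For Krt7 to Krt19 the ratio was 2.54 and 2.42 in the wt pair, against 2.29, 6.24 and 4.92 in null libraries, so that null replicate 1 was below and the other null libraries were above both wt libraries.

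**Figure D4:**
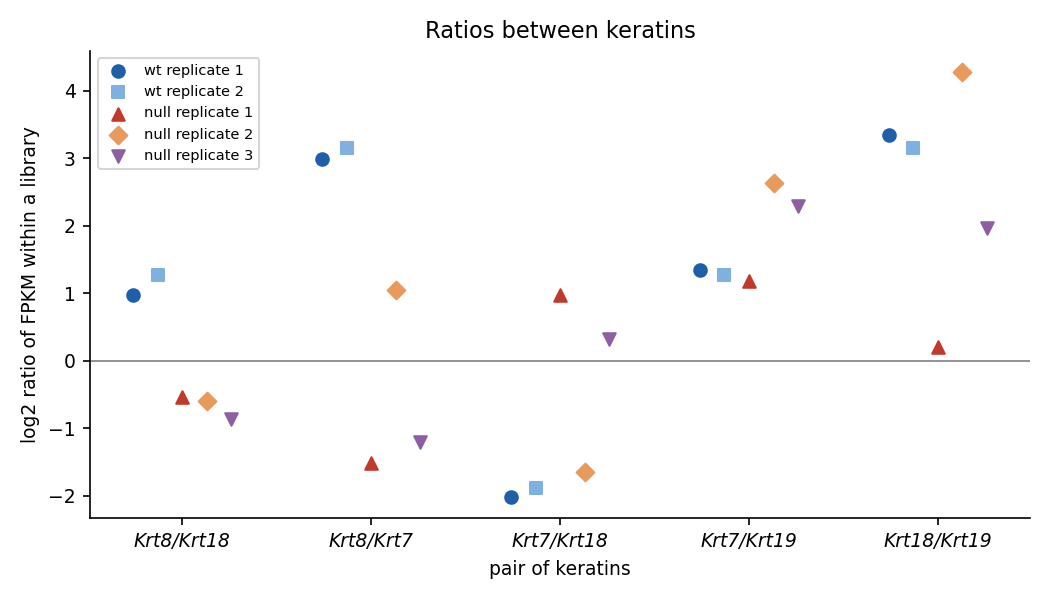
Log2 ratio of FPKM between keratins within each library, 1 point a library. For Krt8 to Krt18 the wt points lie at 0.98 and 1.27 and the null points between -0.86 and -0.54, while the groups overlap for Krt7 to Krt19 and Krt18 to Krt19.

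Summed over the members, type II exceeded type I RNA 2.02-fold and 2.40-fold in wt replicates 1 and 2. The ratio was 1.42, 0.905 and 1.44 in null replicates 1, 2 and 3. RNA levels of the partner types were thus within 2.40-fold of each other in every library, also in null replicate 1, where the sum was highest.

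The genes most like each keratin over the 5 libraries were taken by the root mean square (RMS) difference in centred log2(TMM CPM + 0.5), among 10899 others that reached 10 counts throughout. Krt7 and Krt19 were close to each other, with an RMS difference of 0.59. Krt7 ranked 8th among the genes most like Krt19, and Krt19 ranked 24th among those most like Krt7. Krt18 was closest to Krt80 among the keratins, with 0.49, and Krt80 ranked 161st among the genes most like Krt18. By contrast Krt18 ranked 558th among the genes most like its partner Krt8, with 0.89. The gene nearest to Krt8 was Cul9, with 0.22, followed by Msln, the gene of mesothelin, with 0.30. The FPKM of Msln was 171.3 and 172.9 in the wt pair, against 485.9, 48.4 and 49.6 in the null libraries. Nearest to Krt18 was Plcb3, a phospholipase C, with 0.11. Nearest to Krt7 was Prss22, a serine protease, with 0.15. Nearest to Krt19 were Syt8, with 0.21, and Pkp3, a desmosomal plakophilin, with 0.43. Nearest to Krt20 was Wscd1, with 0.40, and nearest to Krt80 was Hs3st1, a heparan sulfate sulfotransferase, with 0.15.

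Krt8 lies next to Krt18 in the type II gene cluster, although Krt18 is a type I gene. On the outer side of Krt8, Krt78, Krt79 and Krt4, keratins of stratified epithelia, had at most 23 counts in any library. On the outer side of Krt18 follow Eif4b, a translation initiation factor, Tns2, a tensin, and Spryd3. Eif4b showed an FPKM of 366.0 and 584.1 in the wt pair, against 272.2, 295.9 and 400.6 in null libraries. In TMM CPM it was below both wt libraries in every null library. Tns2, at 3.63 and 3.28 in the wt pair, had an FPKM of 7.83, 7.04 and 7.28 in the null lines, above both wt libraries in each on either scale. For Spryd3 the FPKM was 18.0 and 21.8 in the wt pair, against 54.8, 18.4 and 65.2 in the null lines, so the groups overlapped.

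Of the 44 other keratins, 33 were listed in at least 1 library and 12 had at least 10 counts in any. They summed to an FPKM of 1.00 and 0.780 in wt replicates 1 and 2 and of 11.2, 3.95 and 1.72 in null replicates 1, 2 and 3. Krt16, the type I keratin of activated skin, was counted 0 times in the wt pair and 318, 0 and 20 times in null replicates 1, 2 and 3. Over the limit of 3 counts its null mean in CPM was at least 38.4-fold higher, or 3.46-fold without null replicate 1. The counts of Krt16 were not whole either, so its values are uncertain. Krt13, of internal stratified epithelia, had 101 counts in null replicate 2 and between 9 and 23 elsewhere. Krt10, of differentiated epidermis, had between 19 and 38 counts in every library. Krt4, Krt6a, Krt42, Krt79, Krt84, Krt87, Krt88 and Krt90 had their highest count in null replicate 1, between 10 and 63. Krt24 had at most 21 counts. Krt10, Krt13 and Krt16 were tested, Krt16 only through null libraries, and 0 were called by edgeR, as were 0.0% of all genes. DESeq2 called 0 of them higher, against 8.41% of all genes, and 0 lower, against 3.68%.

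The 15 keratin filament linkers and partners, with desmosomal and plakin genes among them, were tested in full. Of these, 0 were called at an adjusted p under 0.05. At an unadjusted p under 0.05, 3 were higher, against 12.4% of all genes, and 0 lower, against 6.07%. DESeq2, which gave no adjusted p for Pkp3, called 4 of the other 14 higher, against 8.41% of all genes, and 0 lower, against 3.68%. The log2 fold change had a median of 2.82, against 0.29 over all genes, and was positive for all 15, or for 10 without null replicate 1. Dsg2 and Dsc2 reached the count minimum in no wt library and passed through null libraries, which fixes their sign, and without them the median was 2.43 and DESeq2 called 3. In TMM CPM the null libraries all exceeded the wt pair for 6 of the 15, against 22.6% of all genes, and were all lower for 0, against 17.3%. By line, the median difference in log2(TMM CPM + 0.5) from the wt mean was 3.53, 0.07 and 0.80 in null replicates 1, 2 and 3. Dst, a plakin gene with its transcripts summed, had the lowest p. It had 12.0 and 8.68 TMM CPM in the wt pair, against 66.3, 46.0 and 30.9 in the null libraries (log2 fold change 2.20, SE 0.56, adjusted p = 0.190). Pkp1, a desmosomal plakophilin, had 4.76 and 10.5 TMM CPM in the wt pair, against 141.9, 14.7 and 29.7 in the null libraries (log2 fold change 3.02, adjusted p = 0.232). Jup, plakoglobin, had 26.0 and 46.7 TMM CPM in the wt pair, against 650.2, 92.8 and 61.1 in the null libraries (log2 fold change 2.88, adjusted p = 0.256). Without null replicate 1 the log2 fold change was 1.86 for Dst, 1.48 for Pkp1 and 1.05 for Jup.

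Dsp, desmoplakin, which binds keratin at the desmosome, followed another order. Its FPKM was 0.06 and 0.14 in the wt pair, against 14.5, 0.01 and 1.48 in the null libraries. Null replicate 2 thus had 2 counts of Dsp, 2 of Evpl and 0 of Dsg2 and Dsc2, while its Krt8 and Krt18 had FPKM values of 230.5 and 346.3.

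Of 14 epithelial transcription factors 12 were tested, with 0 called by edgeR, as were 0.0% of all genes. DESeq2 called 3 (Tfap2a, Tfap2c and Trp63) higher, against 8.41% of all genes, and 0 lower, against 3.68%. Of the 12, 5 (Grhl1, Ovol2, Tfap2a, Tfap2c and Trp63) reached the count minimum in no wt library and passed only through null libraries, which fixes their sign, so no test of them is used. Among the other 7 the median log2 fold change was 1.03, against 0.29 over all genes. At an unadjusted p under 0.05, 0 of these were higher, against 12.4% of all genes, and 0 lower, against 6.07%. DESeq2 called 0 of them higher, against 8.41%, and 0 lower, against 3.68%. Tfap2c had 0 counts in the wt pair, against 88, 13 and 8 in null replicates 1, 2 and 3. Trp63, the master regulator of basal epithelium, was not counted in either wt library and had 7, 18 and 279 counts in null replicates 1, 2 and 3. It was highest in null replicate 3, where Krt5 had 4 and Krt14 0 counts. Tfap2a had 7 and 7 counts in the wt pair, against 249, 27 and 65 in the null lines. Elf3, the most abundant of the list in 3 libraries, showed an FPKM of 8 and 9.06 in the wt pair, against 65.1, 2.49 and 6.17 in the null libraries.

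Of the 13 other intermediate filament genes 8 were tested, and 0 were called by edgeR, as were 0.0% of all genes. DESeq2 called 0 higher, against 8.41% of all genes, and 0 lower, against 3.68%. The median log2 fold change was -0.33, against 0.29 over all genes. Vim, the vimentin of mesenchymal and cultured cells, showed an FPKM of 1478 and 3406 in wt replicates 1 and 2 and of 85.1, 2864 and 1401 in null replicates 1, 2 and 3. It was lowest in null replicate 1, where the keratins were highest, and highest in wt replicate 2, not where they were lowest. The summed keratin FPKM was 0.726 and 0.511 times that of Vim in the wt pair, against 139.3, 0.253 and 0.804 times in the null libraries. Lmna, of the nuclear lamina, was below both wt libraries in every null library in TMM CPM but not in FPKM (log2 fold change -0.82, SE 0.56, adjusted p = 0.449). Nes, nestin, showed an FPKM of 16.9 and 15.7 in the wt pair, against 70.1, 57.5 and 7.82 in the null libraries.

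Markers of cell types also differed between libraries, though not in the same order as the keratins. Their part in the keratin values was not tested. The 10 other epithelial markers summed to an FPKM of 44.6 and 49.1 in wt replicates 1 and 2 and of 2216, 1.04 and 362.5 in null replicates 1, 2 and 3. Cldn4, a claudin, was the most abundant of them except in null replicate 2, where Spint1 led. In null replicate 2, Epcam and Cdh1, the gene of E-cadherin, had 0 counts, whereas in null replicate 1 they had 9414 and 18168. The 10 fibroblast and mesenchymal markers summed to 371.9 and 326.3 in the wt pair, against 1.70, 339.9 and 2356 in the null libraries. Col1a1 led in the wt libraries and null replicate 1, and Acta2, smooth muscle actin, in null replicates 2 and 3. In null replicate 1, Col3a1, Pdgfrb, Acta2 and Lum had 0 counts.

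The 8 squamous or basal epithelial markers summed to an FPKM of 8.84 and 20.1 in the wt pair, against 3754, 15.5 and 50.8 in the null libraries. Nearly all of the sum in null replicate 1 was Sprr1a, a cornified envelope precursor, with 3691. Sfn, the stratifin gene, showed an FPKM of 2.43 and 3.29 in the wt pair, against 60.1, 2.91 and 19.7 in the null lines. Of the others that library had 113 counts of Lor, 79 of Ivl, 8 of Dsg3, 7 of Trp63, 1 of Sprr1b and 0 of Dsc3. Of the 12 follicular markers 5 were tested, with 0 called by edgeR and 1, Pax8, called higher by DESeq2, against 8.41% of all genes. DESeq2 gave no adjusted p for Slc5a5. Pax8, a thyroid transcription factor, showed an FPKM of 0.40 and 0.17 in the wt pair, against 18.2, 12.8 and 2.56 in the null lines. The 12 summed to 15.3 and 20.6 in the wt pair, against 35.2, 68.5 and 4.85 in the null libraries, with Nkx2-1 leading in the wt libraries and null replicate 2 and Pax8 in the others. Foxe1 had at most 3 counts, and Iyd at most 1. Tg, thyroglobulin, ran the other way from Pax8, with an FPKM of 0.80 and 0.86 in the wt pair, against 0.04, 0.51 and 0.34 in the null lines (log2 fold change -2.13, adjusted p = 0.30). Of the leukocyte markers Ptprc, Cd3e and Adgre1 had 0 counts in every library, and Lyz2 showed an FPKM of at most 1.39. The 5 endothelial markers summed to at most 0.680, and the 5 thyroid C cell markers to at most 5.96.

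**Figure D5:**
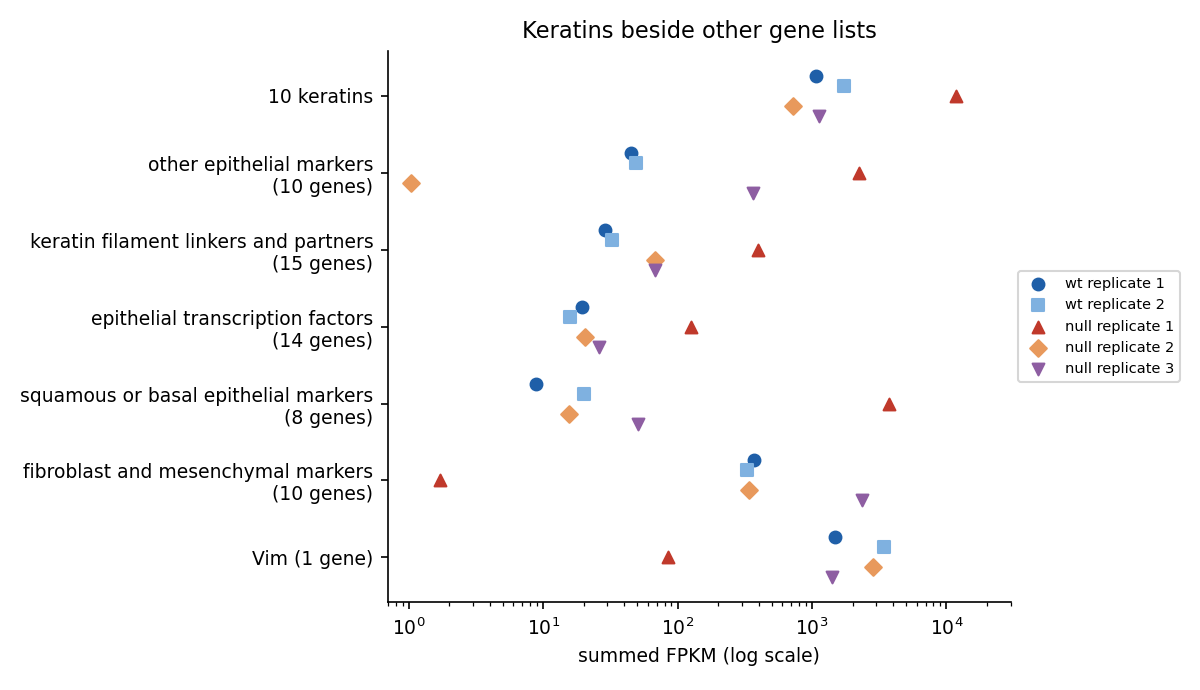
Summed FPKM (log axis) of the 10 keratins, 5 gene lists and Vim, 1 point a library. Null replicate 1 is highest for the keratins, at 11853, and lowest for the fibroblast and mesenchymal markers, at 1.70, and for Vim, at 85.1, while null replicate 2 has 1.04 for the other epithelial markers beside 725.3 for the keratins.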

How the data were processed

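RNA of 5 cell line libraries was sequenced by the authors from TruSeq libraries on an Illumina HiSeq. The aligner, counting program, genome build and annotation are not given in the sources used here. The authors deposited, per RefSeq transcript and library, estimated counts, some of them fractional, and FPKM values.

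Estimated counts were summed per NCBI gene and rounded, and FPKM was summed likewise. Of 17923 genes, 17866 matched a symbol in RefSeq GRCm38.p6. edgeR 4.0.16 (R 4.3.3, TMM, filterByExpr by group, glmQLFit and glmQLFTest) was fitted to 13240 genes over all 5 libraries. The standard error is the log2 fold change over the square root of F. Alternatives used DESeq2 1.42.0, other filters, limma 3.58.1 on log2 FPKM with pseudocounts 0.1, 0.01 and 1, each library left out, a replicate block, and both wt libraries summed. The fits were also run on simulated counts that held no line differences within a group. That run does not show how the fits perform on these libraries. The paper speaks of 3 biological replicates, whereas the labels give 2 wt and 3 null libraries. The null libraries differ in line name and passage and the wt libraries in TSH, so p-values measure the spread between these, and the labels do not say whether the lines arose independently.

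The members and gene lists were chosen with earlier results of these data known. Named genes are all members, other keratins with at least 10 counts in any library, up to 3 genes of lowest p per direction and list, the genes most like a member and the neighbors of Krt8 and Krt18. Other genes, such as Dsp, Evpl, Dsg2, Dsc2, Elf3, Sfn and Pax8, and the ratios were chosen after their values were seen. An adjusted p that DESeq2 did not give was left missing. Some genes of the marker lists are not reported here.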

Additional observations from a re-analysis of the deposited data

How the results depend on the processing

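Over all genes, edgeR called 0 higher and 0 lower in the null libraries. DESeq2 called 1113 higher and 487 lower. limma on log2(FPKM + 0.1), log2(FPKM + 0.01) and log2(FPKM + 1) called 1 higher each and 5, 3 and 7 lower. edgeR called 4 lower without the filter on low counts and 1 lower where each library had to reach 10 counts. The cause was not tested.

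The median log2 fold change of the tested keratins was 2.15 and lay between -0.40, without null replicate 1, and 2.58 when single libraries were left out. It was between 0.98 and 1.34 in the limma fits, which use another scale (0.61 over all genes with pseudocount 0.1) and other members, 7 without Krt17 with a filter and 10 with no filter. Without Krt17 edgeR gave 1.42. Of 107 alternative values of single keratins 3 changed direction, all without null replicate 1, and with single libraries left out the range was -0.50 to 1.81 for Krt80, -0.83 to 1.38 for Krt18 and -0.30 to 4.26 for Krt19. It was 0.76 to 4.19 for Krt7 and -2.72 to -0.18 for Krt8. DESeq2 called Krt7. With the replicate number as a block the median was 1.54 and 0 genes were called in either direction. The labels do not say whether the numbers pair samples. The correlation of deviations was -0.112 for number 1 and -0.108 for number 2. It cannot decide this, since the deviations of 2 wt libraries mirror each other. The difference in the log2 Krt8 to Krt18 ratio, an alternative added after seeing the data, was -1.79 and ranged from -1.93 to -1.65 with libraries left out. The same range for Krt7 to Krt8 was 3.14 to 4.43. With 2 wt and 3 null libraries an exact permutation test of a single value cannot go below p = 0.1, and depth limits Krt5, Krt15 and Krt17.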
